A study of Mus musculus with 27 samples.

Results

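The 6 small noncoding RNAs described here work inside protein complexes and were followed through embryoid body differentiation. They are 7SK (Rn7sk), the RNA of RNase MRP (Rmrp), the RNA of RNase P (Rpph1), telomerase RNA (Terc) and the Y RNAs Rny1 and Rny3. These 6 genes were picked by name from the 51826 gene identifiers of the count tables, after the identifiers had been matched without version to GENCODE mouse release 21, where 51633 (99.6%) found a gene. Total RNA was depleted of ribosomal RNA and sequenced from mouse embryonic stem cells of the E14 background, at days 0, 3 and 10 of embryoid body culture, an aggregate culture in which stem cells leave pluripotency. The 9 groups were Quaking KO, Sam68 KO and wild type cells at each day, with 3 replicates a group and 27 libraries in all. Each knockout is a single line on the E14 background that the wild type cells share, and how it was made is not given in the labels. Quaking and Sam68 are RNA-binding proteins of the STAR family, and the series asks what these proteins do in early development.

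The transcripts of the targeted genes were still present. Qk, which encodes Quaking, averaged 140, 114 and 218 CPM (read counts scaled to a common library total) in Quaking KO cells at days 0, 3 and 10, against 213, 223 and 293 CPM in wild type. Khdrbs1, which encodes Sam68, averaged 96.0, 103 and 101 CPM in the libraries labelled Sam68 KO, against 89.7, 158 and 126 CPM in wild type. At day 0 Khdrbs1 did not pass the test between them (log2 fold change −0.03, SE 0.04, edgeR adjusted p 0.576), while at day 3 it was lower (−0.70, SE 0.06, adjusted p 1.15e-07). Its counts do not check that label, and these 9 libraries are called by their label throughout. Library totals lay between 56461674 and 77257496 counts. The 9 libraries labelled Sam68 KO carry one unbroken run of library numbers in their descriptions, and the other 18 carry another. That set of library numbers and the Sam68 label coincide and cannot be told apart.

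Libraries labelled Sam68 KO also stood apart in other structured RNAs. The summed level of 3 genes for 7SL (Rn7s1, Rn7s2 and Rn7s6), the RNA of the signal recognition particle, lay between 0.0505 and 0.982 CPM in these 9 libraries, against 155 to 303 CPM in the 18 Quaking KO and wild type libraries. The summed level of 7 annotated copies of 7SK lay between 0.892 and 2.72 CPM, against 175 to 361 CPM. The groups did not overlap in either sum. These genes were chosen after their values had been seen. The part of this difference between library sets in the results below was not tested.

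**Figure D1:**
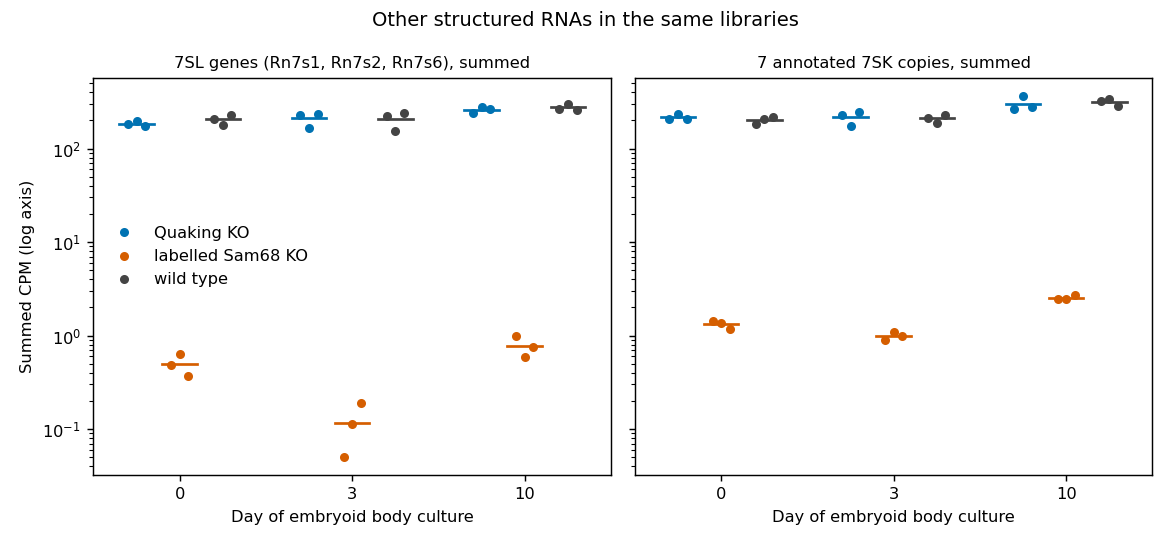
Summed CPM (log axis) of 3 genes for 7SL (left) and of 7 annotated copies of 7SK (right) by day of embryoid body culture. Each point is 1 library and each bar the mean of 3; every library labelled Sam68 KO lies at or below 2.72 CPM, and every other library at or above 155 CPM.

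Of the 6 RNAs, 5 are textbook products of RNA polymerase III, which makes short RNAs that end at a run of U. Terc is the exception, since telomerase RNA of mammals is made by RNA polymerase II, so the group is held together by structure and by life in a ribonucleoprotein more than by its polymerase. 7SK holds the elongation factor P-TEFb in an inactive complex with HEXIM and LARP7 proteins. RNase P cuts the leader from transfer RNA precursors, RNase MRP acts in ribosomal RNA maturation, and both share most of their protein subunits. Terc carries the template from which telomerase copies telomere repeats, and Y RNAs bind the Ro60 and La (Ssb) proteins. Embryonic stem cells are known for high telomerase activity, which falls as they differentiate.

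The sequences are from the GENCODE release 21 transcripts on the GRCm38 assembly, in DNA letters from 5′ to 3′. Terc lies on the minus strand of chromosome 3 from 96414437 to 96414859, and its first 90 of 423 bases are shown because they hold the telomere template, where the capitals mark CTAACCC. Rny3, on the plus strand of chromosome 6 from 47781624 to 47781725, and Rny1, on the minus strand from 47788069 to 47788180, are shown whole because their levels separated in these data. Capitals in Rny3 mark ACTAAT, the only copy in the 6 RNAs of the core letters known to be bound by Quaking, and in both Y RNAs they mark the terminal run of T.
Terc: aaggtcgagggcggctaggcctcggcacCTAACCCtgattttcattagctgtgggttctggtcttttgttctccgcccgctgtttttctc
Rny3: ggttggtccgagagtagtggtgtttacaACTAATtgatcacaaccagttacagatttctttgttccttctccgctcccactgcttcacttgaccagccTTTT
Rny1: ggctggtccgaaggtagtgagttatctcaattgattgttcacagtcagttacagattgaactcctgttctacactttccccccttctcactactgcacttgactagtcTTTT

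Rpph1 lies on the minus strand of chromosome 14 from 50807449 to 50807767, and Rmrp on the minus strand of chromosome 4 from 43492788 to 43493058. The first 300 of the 319 bases of Rpph1 and all 271 of Rmrp are printed without capitals, as the pair of ribozymes whose ratio is given further on.
Rpph1: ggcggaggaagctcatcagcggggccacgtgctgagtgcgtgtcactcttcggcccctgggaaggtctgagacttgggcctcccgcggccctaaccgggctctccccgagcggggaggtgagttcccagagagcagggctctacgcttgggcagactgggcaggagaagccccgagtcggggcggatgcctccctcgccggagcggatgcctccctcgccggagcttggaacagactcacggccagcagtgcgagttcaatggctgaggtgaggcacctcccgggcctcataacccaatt
Rmrp: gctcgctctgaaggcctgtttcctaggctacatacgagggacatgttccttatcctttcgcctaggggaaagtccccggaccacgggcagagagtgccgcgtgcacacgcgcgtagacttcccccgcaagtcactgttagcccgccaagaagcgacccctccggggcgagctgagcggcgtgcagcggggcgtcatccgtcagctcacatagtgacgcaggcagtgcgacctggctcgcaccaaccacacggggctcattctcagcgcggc

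Rn7sk lies on the minus strand of chromosome 9 from 78175303 to 78175633. Its first 110 of 331 bases hold the 5′ hairpin bound by HEXIM, with the GATC repeats of that hairpin in capitals.
Rn7sk: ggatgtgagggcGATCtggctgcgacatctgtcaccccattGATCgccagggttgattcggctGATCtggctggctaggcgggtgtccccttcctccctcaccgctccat

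On the RNA's own strand, ACTAAT or ACTAAC occurred in 1 of the 6 RNAs, at bases 29 to 34 of Rny3. Of 139181 annotated transcripts at least as long as Rny3, 1.47% held either in their first 102 bases. CTAACCC stood in the first 423 bases of 1.25% of transcripts of at least the length of Terc, and GATC in the first 331 bases of 61.9% of those at least as long as Rn7sk. TAAA, core letters bound by Sam68, occurred in none of the 6, while 20.8% of transcripts held it in their first 102 bases and 59.5% in their first 423. ACTAAT in Rny3 does not overlap the GATC at bases 36 to 39. A global alignment gave 72.3% identity between Rny1 and Rny3, and 51.7% between Rmrp and Rpph1.

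How safely reads can be assigned differed between the RNAs. No 50-base stretch of Terc or Rny3 recurred in another annotated transcript of the tables. In Rn7sk 68.1% of such stretches recurred in the 7 annotated 7SK copies, and in Rny1 19.0% recurred in the predicted gene Gm26168. Rpph1 overlaps Ccnb1ip1 on the same strand over 284 bases, with 68.1% of its stretches shared, and Rmrp overlaps Ccdc107 on the opposite strand over 159 bases. The annotation also holds a second Rmrp identifier on the same strand that covers all 271 bases and is not among the identifiers of the count tables. How the counter treated such reads is not given in the sources used here, so the 4 sharing RNAs carry that uncertainty. Ccnb1ip1 averaged 35.6, 55.9 and 0.728 CPM in the libraries labelled Sam68 KO at days 0, 3 and 10, against 26.3, 30.0 and 1.38 CPM in wild type, and its highest value in any library was 58.1 CPM. Ccdc107 did not exceed 11.7 CPM. Rpph1 and Rmrp were never below 120 and 608 CPM.

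Levels spanned orders of magnitude, and Rn7sk was the highest per length in each of the 9 groups. Per kilobase of RNA, wild type cells at day 0 held 33997 ± 1048 CPM per kb of Rn7sk, 14582 ± 3290 of Rpph1, 10254 ± 1031 of Rmrp, 86.2 ± 14.4 of Terc, 11.4 ± 1.78 of Rny1 and 10.0 ± 2.12 of Rny3 (SD, n = 3). The replicates of Rpph1 and Rmrp overlapped in this measure, and so did those of Rny1 and Rny3, while the other neighbours in this order did not. The 6 RNAs together took 0.443% to 1.80% of all counts in the 9 libraries labelled Sam68 KO, against 1.68% to 2.94% in the 18 Quaking KO and wild type libraries. The lowest counts behind any value were 27 for Rny1 (exact Poisson 95% interval 17.8 to 39.3), 41 for Rny3 (29.4 to 55.6) and 556 for Terc (511 to 604). These intervals cover counting error only. Both Y RNAs are shorter than the 125-base reads of the protocol.

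**Figure D2:**
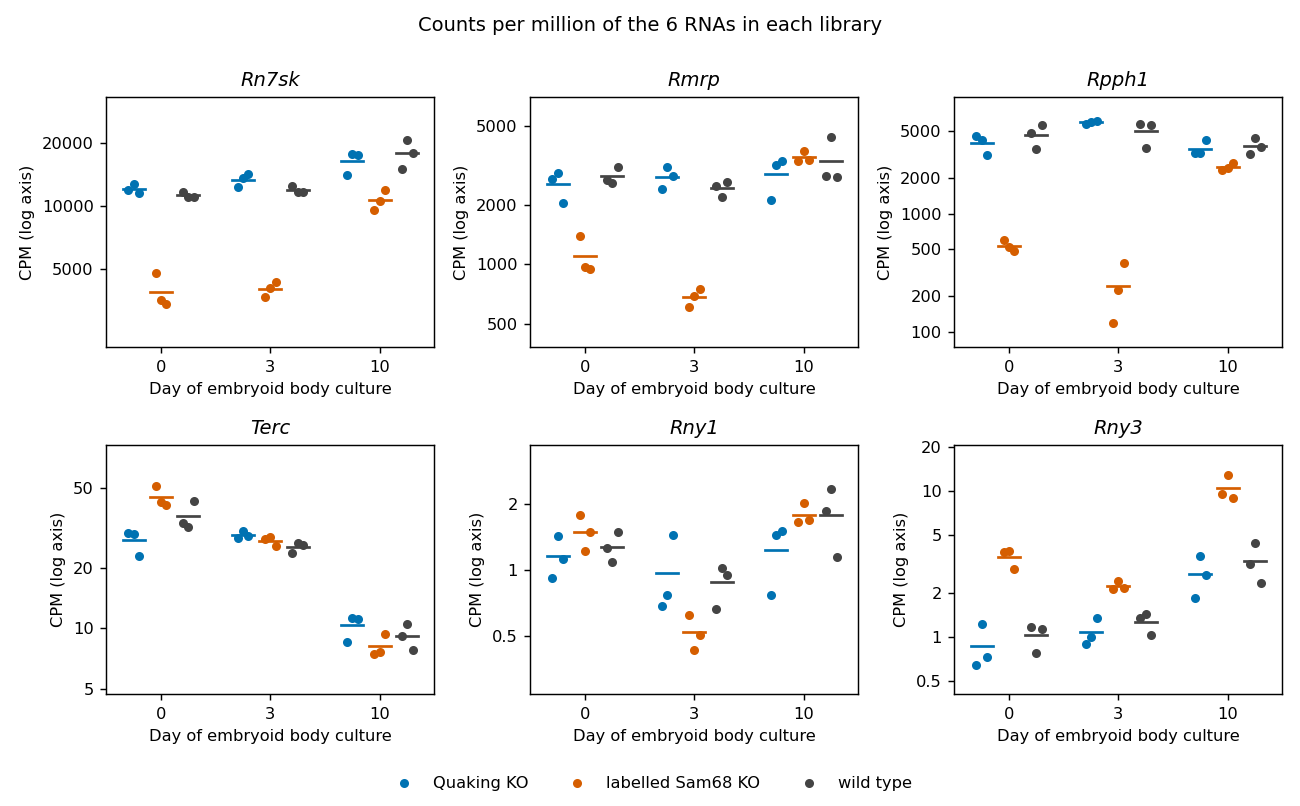
CPM (log axis) of each of the 6 RNAs by day of embryoid body culture in Quaking KO, labelled Sam68 KO and wild type libraries. Points are libraries and bars are means of 3; Terc is low in all lines at day 10, while Rn7sk, Rmrp and Rpph1 of the libraries labelled Sam68 KO lie below both other lines at days 0 and 3.

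The wild type time course gives these RNAs over the days of culture with no gene targeted. Terc was 33.8, 32.2 and 43.4 CPM in the wild type replicates at day 0, then 23.9, 26.8 and 26.1 CPM at day 3, and 9.17, 10.5 and 7.79 CPM at day 10. No library of a later day overlapped an earlier one. At day 3 Terc fell by 0.61 on the log2 scale against day 0 (SE 0.12, edgeR adjusted p 0.000535). At day 10 the fall was 4.69-fold (log2 fold change −2.23, SE 0.13, adjusted p 1.33e-09).

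Rny3 moved the other way. Its wild type replicates held 1.16, 0.776 and 1.13 CPM at day 0, 1.35, 1.43 and 1.04 CPM at day 3, and 3.15, 4.42 and 2.33 CPM at day 10. Day 10 lay above both earlier days with no overlap, and Rny3 rose 2.73-fold there against day 0 (log2 fold change 1.45, SE 0.24, adjusted p 9.26e-05). The difference between days 3 and 0 did not pass (0.22, SE 0.26, adjusted p 0.5).

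Rny1 did not follow Rny3. Its wild type values were 1.27, 1.09 and 1.49 CPM at day 0, 0.662, 1.03 and 0.948 CPM at day 3, and 1.87, 2.34 and 1.15 CPM at day 10. Rny1 fell by 0.64 at day 3 against day 0 (SE 0.26, adjusted p 0.0471), a call lost without any of 4 of the 6 libraries compared, replicates 1 and 3 of either day (adjusted p 0.0783 to 0.165). It rose by day 10 against day 3 (0.88, SE 0.25, adjusted p 0.00611), but day 10 against day 0 did not pass (0.24, SE 0.24, adjusted p 0.37).

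Of the abundant RNAs, Rn7sk was 15039, 20673 and 17823 CPM in wild type at day 10, against 11653, 11037 and 11069 CPM at day 0. The 3 later libraries were all higher, and Rn7sk rose 1.35-fold (log2 fold change 0.43, SE 0.12, adjusted p 0.00459). Rpph1 was 3197, 4377 and 3663 CPM at day 10, against 4830, 3524 and 5600 CPM at day 0, and these ranges overlap. Rpph1 fell by 0.55 (SE 0.20, adjusted p 0.0207), a call lost with DESeq2 (adjusted p 0.0849) and without day 0 replicate 1 (0.0548) or 3 (0.1). Rmrp did not pass between these days (0.02, SE 0.16, adjusted p 0.912), with 2802, 4376 and 2764 CPM at day 10 and 2666, 2574 and 3097 CPM at day 0. Without day 10 replicate 2, the highest of the 9, Rmrp was lower at day 10 (log2 fold change −0.24, adjusted p 0.0468).

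Against day 0, 2 of the 6 RNAs passed the test in wild type at day 3 and 4 of 6 at day 10. Over all genes tested, 60.9% and 80.8% did. From day 3 to day 10 it was 5 of 6 against 76.1%, all but Rmrp (log2 fold change 0.31, SE 0.16, adjusted p 0.0918). In that comparison Rmrp passed with DESeq2 (0.0408) and without day 10 replicate 1 (0.00645) or 3 (0.0385), and Rpph1 lost its call with DESeq2 (0.0999) and without day 3 replicate 1 (0.0969) or 3 (0.0733) or day 10 replicate 3 (0.0512). These shares are near or under the background, so the counts mark no property of the group. In bulk RNA, fewer cells of a type and less RNA per cell cannot be told apart. The stem cell markers Pou5f1, Nanog, Sox2, Esrrb, Klf4 and Zfp42 summed to 99.7 to 121 CPM at day 10 and 2562 to 2729 CPM at day 0 in wild type, and all 6 were lower at day 10. The 5 markers of fibroblasts (Col1a1, Col1a2, Col3a1, Thy1 and Postn) summed to 6727 to 8772 CPM at day 10 and 4.02 to 4.598 CPM at day 0, with 4 higher and 1 lower. Their part in the day 10 values was not tested.

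**Figure D3:**
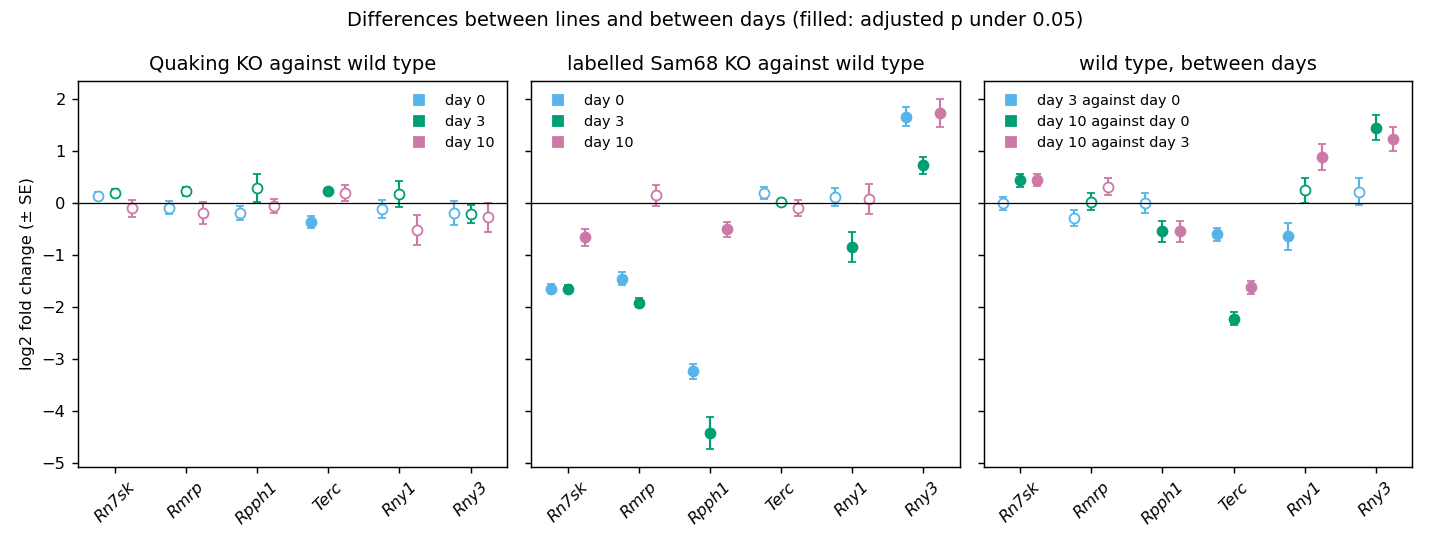
Log2 fold change of each RNA with its standard error from the edgeR fit, for Quaking KO against wild type (left), labelled Sam68 KO against wild type (middle) and later against earlier days in wild type (right), 3 libraries a group. Filled points have an adjusted p under 0.05; the lowest is Rpph1 at day 3 in the middle panel (−4.43), and in the right panel Terc at day 10 against day 0 (−2.23) is the lowest and Rny3 (1.45) the highest.

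The proteins of the same complexes mostly fell between days 0 and 10 in wild type. Of the 84 partner genes in 6 lists, 7 rose and 68 fell by day 10 (all genes tested: 41.4% higher and 39.4% lower). The lists come from textbook membership of each complex.

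Of the 13 genes of the telomerase and H/ACA list, none rose and 12 fell, with a median log2 fold change of −1.13, against 0.01 over all genes tested. Dkc1, the pseudouridine synthase that stabilises Terc, was 78.2 ± 2.98 CPM at day 10 and 259 ± 2.62 CPM at day 0 (SD, n = 3 each). It fell by 1.96 (SE 0.06, adjusted p 3.46e-12). Nhp2, another H/ACA core protein, fell by 2.13 (SE 0.08, adjusted p 1.47e-11). Tert, the reverse transcriptase, took a different path from its RNA at day 3. It averaged 11.8 ± 0.198, 16.2 ± 0.561 and 8.68 ± 1.46 CPM at days 0, 3 and 10, and rose at day 3 against day 0 (0.36, SE 0.09, adjusted p 0.0045) while Terc fell. By day 10 Tert was lower than at day 0 (−0.69, SE 0.10, adjusted p 1.64e-05).

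Ro60, the ring-shaped protein that binds Y RNAs, was the 1 gene of the 10 on the Y RNA list that rose by day 10. It averaged 35.8 ± 1.05, 68.9 ± 2.89 and 94.1 ± 8.36 CPM at days 0, 3 and 10 and rose 1.15 on the log2 scale by day 10 (SE 0.07, adjusted p 1.97e-09). It had already risen at day 3 (0.85, SE 0.07, adjusted p 1.16e-07), when Rny3 did not pass. Of the others on the list 8 fell, among them Ssb (−0.66, SE 0.09, adjusted p 1.57e-05), which protects the U-rich ends of polymerase III transcripts, and the cold-shock protein gene Ybx3 (−1.59, SE 0.06, adjusted p 2.30e-11).

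All 11 protein genes of RNase P and RNase MRP fell by day 10, with a median of −0.76, while Rmrp did not pass. Pop1, the large subunit of both enzymes, averaged 20.9 ± 1.79 CPM at day 10 and 79.0 ± 2.58 CPM at day 0 (log2 fold change −2.16, SE 0.08, adjusted p 1.40e-11). Rpp40 fell by 1.53 (SE 0.07, adjusted p 1.78e-10). Pop1 had risen at day 3 (0.26, SE 0.07, adjusted p 0.0071).

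Of the 18 RNA polymerase III subunit genes, 1 rose and 16 fell by day 10, and Rn7sk and Rny3 rose over the same interval. Polr3g, a subunit form known for its high level in stem cells, averaged 120 ± 2.87, 79.0 ± 2.44 and 32.3 ± 1.22 CPM at days 0, 3 and 10, a fall of 2.13 by day 10 (SE 0.06, adjusted p 1.31e-12). Its paralogue Polr3gl dipped at day 3, with 11.98 ± 1.10, 1.91 ± 0.271 and 10.7 ± 1.25 CPM (day 3 against day 0, log2 fold change −2.74, SE 0.14, adjusted p 9.45e-10). The subunit that rose was Polr3k (0.49, SE 0.08, adjusted p 8.91e-05). Among the 19 genes of initiation factors and regulators, 2 rose and 12 fell. The risers were Brf1, of the factor used at transfer RNA genes (0.52, SE 0.11, adjusted p 0.000521), and Maf1, a repressor of polymerase III (0.20, SE 0.07, adjusted p 0.0171).

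Of the 13 genes of the 7SK particle, 3 rose and 9 fell by day 10, with a median of −0.36. Larp7, which binds the 3′ end of 7SK, averaged 63.6 ± 1.84, 95.3 ± 4.61 and 51.6 ± 5.44 CPM at days 0, 3 and 10. It rose at day 3 (0.49, SE 0.08, adjusted p 0.000112) and was lower at day 10 than at day 0 (−0.54, SE 0.08, adjusted p 2.93e-05). Cdk9, the kinase of P-TEFb, rose at both later days (0.70, SE 0.08, adjusted p 2.67e-06 at day 3 and 0.18, SE 0.08, adjusted p 0.041 at day 10). The RNA helicase gene Ddx21 fell by 2.34 at day 10 (SE 0.06, adjusted p 7.73e-13).

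**Figure D4:**
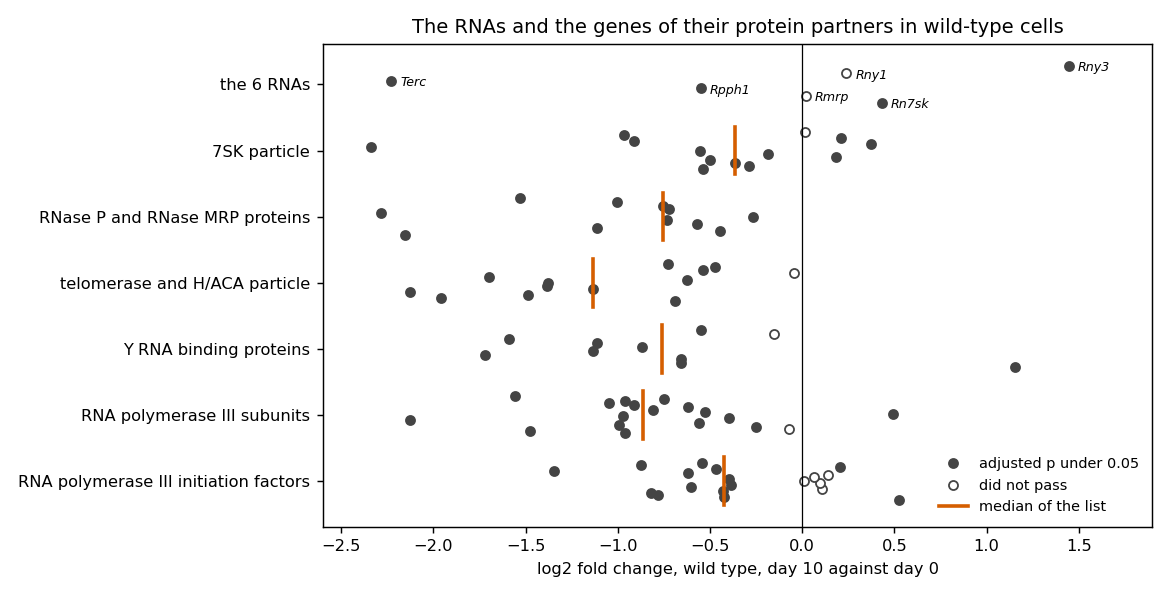
Log2 fold change in wild type at day 10 against day 0 (horizontal axis) for the 6 RNAs (top row, named) and for each gene of 6 lists of protein partners (rows below). Filled points have an adjusted p under 0.05 and bars mark each list's median; 68 of the 84 partner genes fell, while Rny3 and Rn7sk rose and Terc fell by 2.23.

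In the fit of each day's 9 libraries, knockout of Quaking left 5 of the 6 RNAs without a call at any day. Terc alone passed, in opposite directions at days 0 and 3. Of all genes tested, 39.7%, 7.01% and 11.7% passed at days 0, 3 and 10. At day 0 Terc was 30.1, 29.6 and 23.0 CPM in Quaking KO cells, against 33.8, 32.2 and 43.4 CPM in wild type. All 3 knockout libraries were lower, and Terc fell by 0.37 (SE 0.11, edgeR adjusted p 0.0110). The call was lost with DESeq2 (adjusted p 0.127), without Quaking KO replicate 3 (0.0725) and without wild type replicate 3 (0.0771). At day 3 Terc was 28.3, 30.8 and 28.8 CPM in Quaking KO cells, against 23.9, 26.8 and 26.1 CPM in wild type, and all 3 knockout libraries were higher. The rise was 0.23 (SE 0.05, adjusted p 0.0166), and was not called without Quaking KO replicate 2 (0.0816) or wild type replicates 1 (0.0597) or 3 (0.0537). At day 10, 8.58, 11.3 and 11.2 CPM in Quaking KO cells overlapped 9.17, 10.5 and 7.79 CPM in wild type (0.19, SE 0.15, adjusted p 0.476).

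The change of the Terc difference from day 0 to day 3 was itself tested and passed, at 0.60 (SE 0.15, adjusted p 0.0092). It was the only 1 of the 6 RNAs to do so, against 15.9% of all genes. Within the Quaking KO line, a comparison added after the data had been seen, Terc did not pass at day 3 against day 0 (adjusted p 0.823), the interval in which it fell in wild type. By day 10 it had fallen in that line too (−1.64, SE 0.12, adjusted p 2.30e-08). Day 10 minus day 0 did not pass for the Terc difference (adjusted p 0.103) or for any other of the 6 with edgeR. Terc was below 0.05 there before adjustment (p 0.0201), and DESeq2 called none.

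Of the 6 RNAs 1 passed between Quaking KO and wild type at day 0, where 39.7% of all genes did, 1 at day 3 against 7.01%, and 0 at day 10 against 11.7%. At day 10 no RNA had an unadjusted p under 0.05, the lowest being 0.106 for Rny1, and DESeq2 also called 0. Rny3, the one RNA with the ACTAAT letters, was 0.648, 1.23 and 0.732 CPM in Quaking KO cells at day 0, against 1.16, 0.776 and 1.13 CPM in wild type, and these ranges overlap. Its log2 fold changes of −0.20 (SE 0.23), −0.21 (SE 0.17) and −0.28 (SE 0.28) at days 0, 3 and 10 did not pass (adjusted p 0.523, 0.561 and 0.585).

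The other RNAs differed little between these lines. Rn7sk gave log2 fold changes of 0.13, 0.19 and −0.11 at days 0, 3 and 10, Rmrp −0.10, 0.22 and −0.20, Rpph1 −0.20, 0.28 and −0.07, and Rny1 −0.12, 0.16 and −0.52, with adjusted p values between 0.111 and 0.808. Of these, Rn7sk passed at day 0 when only the 6 compared libraries were fitted (adjusted p 0.0343) and at day 3 with DESeq2 (0.0407). With a replicate block on the 6 compared libraries, Rn7sk passed in edgeR at days 0 (adjusted p 0.0257) and 3 (0.00869). Rpph1 then passed at day 3 (0.0259). With no filter on low counts Rn7sk, Rmrp and Rpph1 passed at days 0 and 3 (adjusted p 3.67e-13 to 0.00434). Rpph1 at day 0 passed without wild type replicate 2 (log2 fold change −0.37, adjusted p 0.0139). The day 3 value of Rpph1 had an SE of 0.27, and 5776, 5978 and 6053 CPM in Quaking KO cells lay above 5720, 3601 and 5593 CPM in wild type without overlap. For Rny1 at day 10 the SE was 0.29. Among the 84 partner genes, 36 passed at day 0, where 39.7% of all genes did, 4 at day 3 against 7.01%, and 6 at day 10 against 11.7%. They include Naf1, an assembly factor of H/ACA particles, which fell at day 0 (−0.47, SE 0.03, adjusted p 7.42e-10), and Tert, which fell at day 10 (−0.48, SE 0.12, adjusted p 0.0272). At day 0, where Terc was lower, 5 of the 6 stem cell markers were higher in Quaking KO cells, summing to 2916 to 3192 CPM against 2562 to 2729 CPM in wild type. Their part in the Terc difference was not tested.

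Days 10 and 0 of the Quaking KO line gave calls for Rny3, Rn7sk and Rpph1 as well as Terc. Rny3 was 1.84, 3.59 and 2.67 CPM at day 10, against 0.648, 1.23 and 0.732 CPM at day 0, without overlap, and rose by 1.40 (SE 0.27, adjusted p 0.000344). Rn7sk was higher by 0.22 (SE 0.09, adjusted p 0.0319), a call lost without any of 5 of the 6 libraries compared (adjusted p 0.0604 to 0.163), all but day 10 replicate 1, and with scaling from protein-coding genes (0.188). Rpph1 fell by 0.39 (SE 0.12, adjusted p 0.0116), which was lost with DESeq2 (0.0693) and without day 0 replicate 1 (0.0616). The 4 calls stand against 83.5% of all genes tested. At day 3 against day 0 only Rpph1 passed of the 6 (0.46, SE 0.12, adjusted p 0.00519), against 69% of all genes.

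The libraries labelled Sam68 KO differed from wild type far more. Rpph1 was 597, 525 and 487 CPM in them at day 0, against 4830, 3524 and 5600 CPM in wild type. At day 3 it was 120, 229 and 387 CPM, against 5720, 3601 and 5593 CPM. At day 10 it was 2362, 2445 and 2689 CPM, against 3197, 4377 and 3663 CPM. The groups did not overlap at any day. Rpph1 was lower 9.46-fold at day 0 (log2 fold change −3.24, SE 0.14, adjusted p 4.50e-13), 21.5-fold at day 3 (−4.43, SE 0.31, adjusted p 7.12e-09) and 1.43-fold at day 10 (−0.51, SE 0.14, adjusted p 0.00899).

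Rmrp, its relative, shared this pattern at the first 2 days. Rmrp was 1387, 961 and 950 CPM in the libraries labelled Sam68 KO at day 0, against 2666, 2574 and 3097 CPM in wild type (−1.46, SE 0.13, adjusted p 6.22e-09). At day 3 it was 608, 687 and 748 CPM, against 2494, 2173 and 2609 CPM (−1.92, SE 0.09, adjusted p 1.16e-10). At day 10, 3314, 3738 and 3383 CPM fell within the wild type range of 2764 to 4376 CPM (0.14, SE 0.21, adjusted p 0.603).

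Rn7sk was lower at all 3 days. At day 0 it was 4774, 3551 and 3400 CPM in these libraries, against 11653, 11037 and 11069 CPM in wild type (−1.65, SE 0.09, adjusted p 4.75e-12). At day 3 it was 3668, 4044 and 4356 CPM, against 12456, 11725 and 11618 CPM (−1.66, SE 0.07, adjusted p 2.67e-11). At day 10 it was 9600, 10584 and 11922 CPM, against 15039, 20673 and 17823 CPM, a smaller difference without overlap (−0.67, SE 0.16, adjusted p 0.00464).

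Rny3 went the other way from these 3 RNAs. It was 3.81, 3.84 and 2.90 CPM in the libraries labelled Sam68 KO at day 0, against 1.16, 0.776 and 1.13 CPM in wild type (1.66, SE 0.18, adjusted p 1.19e-07). At day 3 it was 2.14, 2.41 and 2.15 CPM, against 1.35, 1.43 and 1.04 CPM (0.72, SE 0.16, adjusted p 0.000757). At day 10 it was 9.44, 12.9 and 8.96 CPM, against 3.15, 4.42 and 2.33 CPM (1.73, SE 0.27, adjusted p 0.0003). Every library labelled Sam68 KO was above every wild type library of its day. Rny1 passed at day 3 alone, where it was lower at 0.623, 0.432 and 0.505 CPM, against 0.662, 1.03 and 0.948 CPM (−0.85, SE 0.28, adjusted p 0.014). That call was lost without replicate 2 of either group (0.0589 and 0.056). At days 0 and 10 Rny1 gave log2 fold changes of 0.10 (SE 0.17, adjusted p 0.598) and 0.08 (SE 0.28, adjusted p 0.841).

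Terc did not pass between these libraries and wild type at any day in the fit of each day's 9 libraries. Its log2 fold changes were 0.19 (SE 0.11, adjusted p 0.119), 0.01 (SE 0.05, adjusted p 0.872) and −0.10 (SE 0.15, adjusted p 0.61) at days 0, 3 and 10. It was 51.7, 42.7 and 41.3 CPM at day 0 in the libraries labelled Sam68 KO, and wild type replicate 3, at 43.4 CPM, lay above 2 of them while the other wild type libraries held 33.8 and 32.2 CPM. Without wild type replicate 3 Terc was higher there (0.33, adjusted p 0.00519), as it was with no filter on low counts (0.17, adjusted p 0.000198). At day 10, 7.49, 7.62 and 9.33 CPM overlapped the wild type range of 7.79 to 10.5 CPM.

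Between the libraries labelled Sam68 KO and wild type, 4 of the 6 RNAs passed at day 0 where 74.4% of all genes tested did, 5 against 73.1% at day 3, and 3 against 50.6% at day 10. Those shares are near the background. The RNAs made by polymerase III did not move as a block, since Rn7sk, Rmrp and Rpph1 were lower and Rny3 was higher. Other small RNA classes differed between these sets as well. The 95 snRNA genes tested at day 0 had a median log2 fold change of 1.5 and the 186 snoRNA genes one of 0.89, against −0.01 over all genes. At day 3 the medians were 1.31 over 88 snRNA genes and 0.61 over 181 snoRNA genes, and at day 10 they were 0.24 over 55 and −0.01 over 144. Shares of all counts did not follow these medians throughout. At day 3 snRNA genes took 0.00923% to 0.0122% in the libraries labelled Sam68 KO, against 0.0188% to 0.0215% in wild type. At days 0 and 10 these shares overlapped. The snoRNA share was higher at days 0 and 10 and overlapped at day 3. The scaRNA share was lower at day 0 (0.0149% to 0.0171%, against 0.0215% to 0.0247%) and day 3, and overlapped at day 10. The stem cell markers summed to 2070 to 2137 CPM in the libraries labelled Sam68 KO at day 0, against 2562 to 2729 CPM in wild type, with 5 of 6 lower. At day 3 the markers of primed epiblast and primitive streak (Fgf5, T, Eomes and Mixl1) summed to 144 to 191 CPM in these libraries, against 570.5 to 846 CPM in wild type, with 4 of 4 lower. At day 10 the fibroblast markers summed to 2656 to 4069 CPM, against 6727 to 8772 CPM in wild type, with 4 of 5 lower. The 6 markers of day 10 derivatives (Myh6, Tnnt2, Apob, Afp, Col1a1 and Hbb-y) overlapped there. They summed to 2998 to 3396 CPM, against 3152 to 3938 CPM in wild type, with 1 higher and 3 lower. Annotated rRNA genes took 0.00235% to 0.189% of counts in the 9 libraries labelled Sam68 KO, against 0.00156% to 0.00634% in the other 18. The part of these differences in the values of the 6 RNAs was not tested.

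The differences shrank by day 10 for the 3 RNAs that were low. The change of the difference from day 0 to day 10 passed for Rpph1 (2.77, SE 0.21, adjusted p 1.57e-07), Rmrp (1.64, SE 0.25, adjusted p 8.44e-05) and Rn7sk (1.02, SE 0.19, adjusted p 0.000567), 3 of the 6 against 46.6% of all genes. From day 0 to day 3 it passed for Rpph1 (−1.16, SE 0.37, adjusted p 0.0181), Rny1 (−0.93, SE 0.29, adjusted p 0.0160), Rny3 (−0.91, SE 0.23, adjusted p 0.00421) and Rmrp (−0.44, SE 0.16, adjusted p 0.0399), 4 of the 6 against 33.8%. With DESeq2 2 of these 4 passed, without Rpph1 (adjusted p 0.0876) and Rmrp (0.159). Rmrp also lost its call without any of 6 single libraries (adjusted p 0.0587 to 0.153), which were replicate 1 at day 0 and replicates 1 and 2 at day 3 of the libraries labelled Sam68 KO and replicates 1 and 2 at day 0 and 3 at day 3 of wild type. For Rny1 the call was lost without replicate 1 at day 0 (0.0533) or replicate 2 at day 3 (0.0549) of those labelled Sam68 KO, or wild type replicate 2 at day 3 (0.0511).

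Within the libraries labelled Sam68 KO, in comparisons added after the data had been seen, 5 of the 6 RNAs passed at day 10 against day 0, where 88.1% of all genes did. Terc fell by 2.43 (SE 0.09, adjusted p 9.80e-14) and Rny3 rose by 1.61 (SE 0.14, adjusted p 1.13e-08). Rpph1 rose by 2.27 (SE 0.26, adjusted p 4.57e-07), Rmrp by 1.71 (SE 0.12, adjusted p 6.62e-10) and Rn7sk by 1.499 (SE 0.11, adjusted p 1.06e-09). At day 3 against day 0 5 of 6 fell, against 35.9% of all genes lower and 72.9% called, with Rny1 at −1.56 (SE 0.20, adjusted p 2.80e-06) and Terc at −0.76 (SE 0.08, adjusted p 2.93e-07) among them. Terc was lower at day 10 than at day 0 in each of the 3 lines, and Rny3 was higher in each.

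Rmrp stood higher relative to Rpph1 in the libraries labelled Sam68 KO than in wild type, in 9 of 9 libraries, though 3 against 3 cannot pass a permutation test. Counts of Rmrp divided by counts of Rpph1, a ratio within a library that no scaling of the library can move and that is not corrected for length, averaged 2.04 ± 0.259 in the libraries labelled Sam68 KO and 0.612 ± 0.103 in wild type at day 0 (SD, n = 3 each). At day 3 it was 3.34 ± 1.6 and 0.502 ± 0.0893, and at day 10 it was 1.40 ± 0.135 and 0.877 ± 0.123. The log2 differences were 1.74, 2.64 and 0.68, with no overlap at any day. Each gave an exact two-sided permutation p of 0.1, the smallest that 3 against 3 allows, or 0.2 adjusted over the 6 comparisons made. In Quaking KO cells the ratio was 0.643 ± 0.0425, 0.465 ± 0.0531 and 0.807 ± 0.164 at days 0, 3 and 10, and it overlapped wild type at each day (exact permutation p 0.6 each). The 9 libraries labelled Sam68 KO are also the set with its own run of library numbers. Rpph1 shares 68.1% of its 50-base stretches with Ccnb1ip1, and how such reads were counted is not given. The part of either in the ratio was not tested. Protein genes of RNase P and MRP were also lower in the libraries labelled Sam68 KO, 11 of 11 at day 0 and 9 of 11 at day 3, with medians of −0.26 and −0.35, and 1 of 11 at day 10. Of all genes tested, 37.9%, 37.1% and 27.8% were lower at those days.

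**Figure D5:**
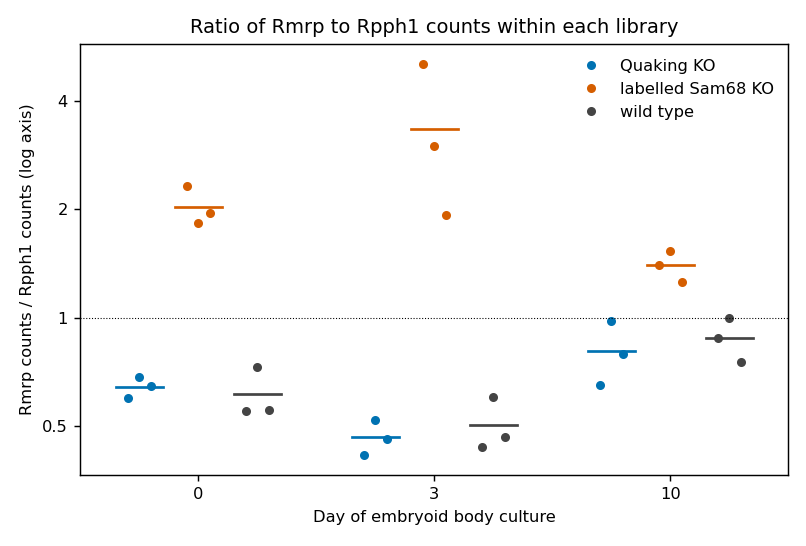
Ratio of Rmrp to Rpph1 counts in each library (log axis) by day of embryoid body culture, with a dotted line at 1. Points are libraries and bars are means of 3; the 9 libraries labelled Sam68 KO lie between 1.26 and 5.08, and the 18 others between 0.415 and 1.00.

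Partners of the Y RNAs and of telomerase differed in their own ways in the libraries labelled Sam68 KO. Ro60 was lower than in wild type at day 0 (−0.38, SE 0.06, adjusted p 9.99e-06) and day 10 (−0.38, SE 0.08, adjusted p 0.00162). Rny3 was 3.15-, 1.65- and 3.32-fold higher at days 0, 3 and 10. Ssb was lower at day 0 (−0.23, SE 0.04, adjusted p 1.30e-05) and day 3 (−0.32, SE 0.05, adjusted p 1.38e-05). Tert was higher at day 0 (0.26, SE 0.05, adjusted p 0.000155) and day 3 (0.48, SE 0.06, adjusted p 1.34e-06), where Terc did not pass. Polr3g was lower at day 0 (−0.40, SE 0.03, adjusted p 6.97e-10) and day 3 (−0.41, SE 0.04, adjusted p 3.36e-07). Of the 84 partner genes, 25 were higher and 46 lower at day 0, 18 higher and 47 lower at day 3, and 12 higher and 19 lower at day 10. Over all genes tested, 36.5%, 36% and 22.8% were higher and 37.9%, 37.1% and 27.8% were lower at those days.

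Across the 27 libraries, the genes whose log2 CPM ran closest to each RNA differed in kind. For Rpph1 they were Rprl3, annotated as a ribozyme (Pearson r 0.98), and the snoRNA Snord118 (r 0.93). Rprl3 averaged 3.18, 1.2 and 12.2 CPM in the libraries labelled Sam68 KO at days 0, 3 and 10, against 18.7, 20.01 and 14.8 CPM in wild type. For Rmrp they were Scarna6 (r 0.96) and Snord118 (r 0.96). Rn7sk ran with the protein-coding genes Mtap and Cox7a2l (r 0.96 each), Terc with Pdss1 and Ino80e (r 0.98 each), Rny3 with Lamb1 and Lmf2 (r 0.95 each) and Rny1 with Edn1 (r 0.87) and Id1 (r 0.85). The candidates were 12988 genes, and the libraries share their line, day and library set, so these values describe the order of libraries and are no test.

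Among the 6 RNAs themselves, Rn7sk, Rmrp and Rpph1 ran together over the 27 libraries (r 0.92 for each pair). Terc and Rny3 ran against each other (r −0.59), and Rny1 and Rny3 only loosely together (r 0.42). The libraries labelled Sam68 KO at days 0 and 3 were low in all of Rn7sk, Rmrp and Rpph1.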

How the data were processed

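Whole-number raw counts per gene were deposited by the authors for each library. Reads were handled with bcl2fastq 2.17.1.14 and STAR 2.5.3a on GRCm38 (mm10), per the submitters' processing notes. For the counting program, its strand setting and its annotation, the entry is not given in the sources used here. Libraries were stranded, paired-end and depleted of ribosomal RNA, per the labels' protocols. CPM used library totals without further scaling. The test was edgeR 4.0.16 (R 4.3.3, limma 3.58.1) with TMM scaling, filterByExpr (minimum count 10, minimum total 15), quasi-likelihood F-tests and Benjamini-Hochberg adjustment over all genes tested. A call means an adjusted p below 0.05. A day was fitted with its own 9 libraries, the wild type days with theirs, and a change of a knockout difference with 12, so comparisons of both knockouts share the wild type libraries. Comparisons were each knockout against wild type at each day, later against earlier days within each line (in the knockout lines added after the data had been seen), and the change of each knockout difference from day 0. All 6 RNAs passed the filter in every comparison. The code was tested on simulated data. Alternatives were DESeq2 1.42.0, other scalings, no filter, a replicate block and each library left out. The labels call the replicates biological without saying from which cultures, so p-values measure the spread between these libraries. The 6 RNAs and the partner lists were chosen with earlier results of these data known. Genes named are the 6 RNAs, up to 2 rising and 2 falling genes of each partner list by adjusted p, a short list of partners (Polr3g, Polr3gl, Tert, Larp7, Ro60 and Ssb among them), the targeted genes and the 2 genes most like each RNA. The 7SL genes, the 7SK copies, Ccnb1ip1, Ccdc107 and Gm26168 were named outside that rule.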

Additional observations from a re-analysis of the deposited data

Results flagged for a closer look

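In all, 8 differences between a knockout line and wild type changed with the day by a test of the change itself, on the log2 scale with edgeR. Between Quaking KO and wild type, the Terc difference moved by 0.60 from day 0 to day 3 (adjusted p 0.0092), from lower to higher in the knockout, with 3 of 3 knockout libraries on that side at each day. Between the libraries labelled Sam68 KO and wild type, the difference at day 3 minus that at day 0 was −1.16 for Rpph1, −0.93 for Rny1, −0.91 for Rny3 and −0.44 for Rmrp. The difference at day 10 minus that at day 0 was 2.77 for Rpph1, 1.64 for Rmrp and 1.02 for Rn7sk. In the same libraries 7SL genes summed to 0.372 to 0.629 CPM at day 0, 0.0505 to 0.189 CPM at day 3 and 0.595 to 0.982 CPM at day 10, and their part in these changes was not tested. No group has more than 3 libraries, so no library was tested as an outlier.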

How the results depend on the processing

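The log2 fold changes recomputed are those of all 6 RNAs for each knockout against wild type at each day and for the wild type days, and elsewhere those of the RNAs that had passed. They kept their direction and their side of the threshold in 449 of the values with 1 library left out and in 431 of those under other settings. Of the remaining values, calls were lost in 31 and 7, gained in 4 and 14, and directions turned in 26 and 5. Rmrp in wild type at day 10 against day 0, without day 10 replicate 2, is among those turned. It also passed there (log2 fold change −0.24, edgeR adjusted p 0.0468). All values that turned belong to differences that had not passed. The log2 difference in the ratio of Rmrp to Rpph1 moved by less than the larger SD of the 2 groups in the 36 values with 1 library left out. Leaving out 1 of 3 values cannot move a group mean by its SD, so this outcome was fixed and is no check. Between Quaking KO and wild type its direction turned at day 3 without wild type replicate 2, and at day 10 without Quaking KO replicate 1. Between the libraries labelled Sam68 KO and wild type it kept its direction. Another library scaling cannot move a ratio within a library, so it is no check here. For Quaking KO against wild type at day 0, 1 RNA passed, against 4 with no filter, 0 with DESeq2 and 2 with the 6 compared libraries alone, with or without a replicate block, and 0 to 2 with 1 library left out. At day 3, 1 passed, against 4 with no filter, 2 with DESeq2, 3 with a block on the 6 compared libraries and 0 to 1 with 1 library left out. The gene count there was 1381, against 1891 with the replicate block, 1002 with the 6 compared libraries, 2433 with both changes and 749 to 1641 with 1 library left out, where 749 is without wild type replicate 2 and 801 without wild type replicate 3. At day 10 it was 2392, against 2165, 1724 and 1531 under the same 3 settings and 1399 to 3139 with 1 library left out, where 1399 is without Quaking KO replicate 2. The change of the Quaking KO difference gave 3 RNAs with no filter from day 0 to day 3, and 1 with no filter from day 0 to day 10 (0 to 1 with 1 library left out). The change of the labelled Sam68 KO difference from day 0 to day 3 gave 2 with DESeq2 and 2 to 5 with 1 library left out. In wild type at day 3 against day 0 it was 1 to 2, in the Quaking KO line at day 3 against day 0 1 to 2, and at day 10 against day 0 2 to 4. Same-numbered libraries correlated between −0.066 and 0.13 in their deviations from group means, not above 0.1 in every pair. This does not settle whether the numbers pair the samples. Quaking KO and wild type library numbers run replicate by replicate. At day 3, 7SL summed to 166 CPM in Quaking KO replicate 2 and 155 CPM in wild type replicate 2. Their other day 3 libraries held 225 to 238 CPM. At day 0, replicate 2 held the highest 7SL sum in Quaking KO and the lowest in wild type. Mitochondrial ribosomal RNA took 11.4% (Quaking KO) and 9.92% (wild type) of counts in day 3 replicate 1, against 5.89% to 6.85% in their others. With the block on the 6 compared libraries, calls were gained for Rn7sk at days 0 (0.0257) and 3 (0.00869) and Rpph1 at day 3 (0.0259) between Quaking KO and wild type, and for Terc at day 0 (0.0237) between the libraries labelled Sam68 KO and wild type, as edgeR adjusted p.

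Directions turned as follows. Between the libraries labelled Sam68 KO and wild type, Terc at day 3 was −0.030 with no filter, −0.011 with DESeq2 and −0.047 to 0.042 with 1 library left out. Terc at day 10 was −0.18 to 0.022, Rny1 at day 0 −0.057 to 0.24 and Rny1 at day 10 −0.14 to 0.33. Between Quaking KO and wild type, Rmrp was −0.18 to 0.050 at day 0 and −0.32 to 0.063 at day 10, Rny1 −0.29 to 0.0074 at day 0 and −0.23 to 0.33 at day 3, and at day 10 Rn7sk was −0.22 to 0.021 and Rpph1 −0.19 to 0.069. In wild type at day 3 against day 0, Rn7sk was 0.0066 with no filter and −0.054 to 0.027 with 1 library left out, and Rpph1 0.015 and −0.18 to 0.19. At day 10 against day 0, Rmrp was −0.058 with scaling from protein-coding genes and −0.24 to 0.15 with 1 library left out, and Rny1 −0.018 to 0.48. The cause of these changes was not tested. Depth limits the Y RNAs most, with a counting error of 19.2% at the lowest Rny1 count and 15.6% at the lowest Rny3 count.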
